A study of Homo sapiens with 36 samples.

Results

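Pericentromeric TET1 peaks are the peaks whose summit lay inside, or within 1 Mb of, the 3 Mb gap that stands for the centromere on each of chromosomes 1 to 22 in the human build hg19. They were taken from 6 deposited peak lists by position alone, with gap starts given to 0.01 Mb. The rule found 681 of 62066 peaks: 209 in siNC, 260 in siCHD5, 61 in siCHD3, 56 in siCHD4, 46 in siMBD2 and 49 in siMBD3. Each list comes from TET1 chromatin immunoprecipitation and sequencing (ChIP-seq) in HEK293T, an established line from human embryonic kidney. The cells had received 1 of 6 small interfering RNAs (siRNAs), siNC, siCHD3, siCHD4, siCHD5, siMBD2 or siMBD3, and the labels give the same culture protocol and TET1 antibody for all of them. They give no time after transfection. Each siRNA had 3 pull-down and 3 input libraries and 1 list, whose peak names carry all 3 replicates, so no spread between replicates could be computed and no difference between lists was tested. siNC, the only siRNA not named for a gene, is treated as the control. The knockdowns themselves were not analysed here.

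TET1 oxidises 5-methylcytosine, the first step of active DNA demethylation. NuRD is a complex that joins histone deacetylases with an ATPase that moves nucleosomes: CHD3, CHD4 and CHD5 are alternative ATPases. MBD2 and MBD3 are alternative members of the same complex, of which MBD2 binds methylated CpG sites and MBD3 does so poorly. Human centromeres are built of long tandem arrays of alpha satellite, flanked by other satellites and by segmental duplications, and much of this DNA is methylated in somatic cells. hg19 holds only small parts of these arrays beside each gap, so reads from many copies in the cell can be placed on few positions.

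The pericentromeric peaks fell into a group of weak summits that every list held in similar number, and a group of stronger summits that was large only in siNC and siCHD5. Fold, which the authors' peak caller gives as pull-down over local control at each summit, was below 2 for 47 peaks in siNC, 53 in siCHD5, 52 in siCHD3, 50 in siCHD4, 40 in siMBD2 and 41 in siMBD3. The highest of these numbers was 1.33 times the lowest, while over the whole lists the share of peaks below 2 was 0.232% in siNC, 0.244% in siCHD5, 83.6% in siCHD3, 86.4% in siCHD4, 24.3% in siMBD2 and 32.8% in siMBD3. Peaks of fold 2 or more numbered 162 in siNC and 207 in siCHD5, but 9 in siCHD3, 6 in siCHD4, 6 in siMBD2 and 8 in siMBD3, a range of 34.5 times. The whole lists differed more in size, with 28450 peaks in siNC and 32749 in siCHD5, called the long lists here. The short lists held 140 peaks in siCHD3, 110 in siCHD4, 358 in siMBD2 and 259 in siMBD3. The value of 2 was chosen after the folds were seen.

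**Figure D1:**
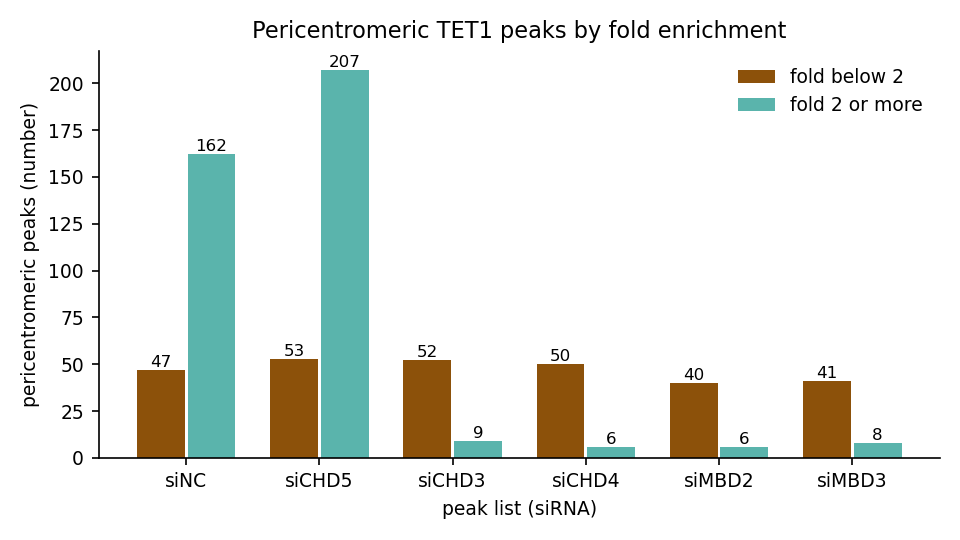
Number of pericentromeric TET1 peaks (y axis) in each of the 6 lists (x axis), split at a fold enrichment of 2. The bars below 2 lie between 40 and 53 in all lists, while those of 2 or more stand at 162 and 207 in siNC and siCHD5 and at 6 to 9 in the other 4 lists.

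Weak summits were rare in the long lists as a whole and common in some of the short ones. They made up 22.5% of the siNC members (95% Clopper-Pearson interval 17 to 28.8) and 20.4% of the siCHD5 members (15.7 to 25.8), both far above the shares of the whole lists. The siMBD2 share of 87.0% (73.7 to 95.1) and the siMBD3 share of 83.7% (70.3 to 92.7) also lay above those of their lists. siCHD3 and siCHD4 members, at 85.2% (73.8 to 93.0) and 89.3% (78.1 to 96.0), stood near their whole lists, at 83.6% and 86.4%. Seen from the other side, the windows around the gaps held 71.2% of all siNC summits below 2 (47 of 66, 58.7 to 81.7). The siCHD5 windows held 53 of 80, siCHD3 52 of 117, siCHD4 50 of 95, siMBD2 40 of 87 and siMBD3 41 of 85. These confidence intervals cover counting error only, and they take each summit as independent. Weak summits often shared a peak, with 52 summits in 39 peak intervals in siCHD3 and 50 in 35 in siCHD4. The stated ranges are therefore likely too narrow.

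Pericentromeric peaks were a small part of the long lists and a larger part of the short ones. Of the siNC list 0.735% was pericentromeric (0.639 to 0.841), and of siCHD5 0.794% (0.701 to 0.896). The shares were highest for the CHD3 and CHD4 siRNAs, with 43.6% (35.2 to 52.2) and 50.9% (41.2 to 60.6), and lower for MBD2 and MBD3, with 12.8% (9.56 to 16.8) and 18.9% (14.3 to 24.2). Their median fold was 5.77 in siNC (order-statistic 95% interval 5.01 to 6.41) and 5.52 in siCHD5 (4.99 to 6.05). In the short lists it lay between 1.48 and 1.58, with intervals from 1.41 to 1.70. Outside the windows the medians were 6.74 in siNC, 6.93 in siCHD5, 1.45 in siCHD3, 1.38 in siCHD4, 4.91 in siMBD2 and 4.37 in siMBD3.

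In siNC and siCHD5 the weak and the strong summits lay at different distances from the gaps. In siNC, 36 of 47 summits below 2 were within 100 kb of a gap edge (76.6%), against 5 of 162 summits of 2 or more (3.09%). siCHD5 gave 42 of 53 (79.2%) and 5 of 207 (2.42%). Median distances were 52.1 kb for weak and 647 kb for strong siNC summits, and 48.9 kb and 637 kb in siCHD5. In the short lists weak summits had median distances of 54.5 to 55 kb, and those within 100 kb numbered 35 of 52 (siCHD3), 37 of 50 (siCHD4), 29 of 40 (siMBD2) and 32 of 41 (siMBD3). Of the few strong summits of these lists 4 of 9, 2 of 6, 2 of 6 and 2 of 8 were within 100 kb, in the same order. Strong summits of the long lists were more often on the q side of the gap, 106 against 56 in siNC and 138 against 69 in siCHD5. Weak summits were split 28 to 18 between the p and q sides in siNC and 33 to 19 in siCHD5. Several chromosomes had members on 1 side only. In siNC these were the q side on chromosomes 7, 13, 14, 15, 18, 19 and 22, and the p side on chromosomes 1, 9 and 11. The amount of assembled sequence at each distance and on each side was not analysed here.

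**Figure D2:**
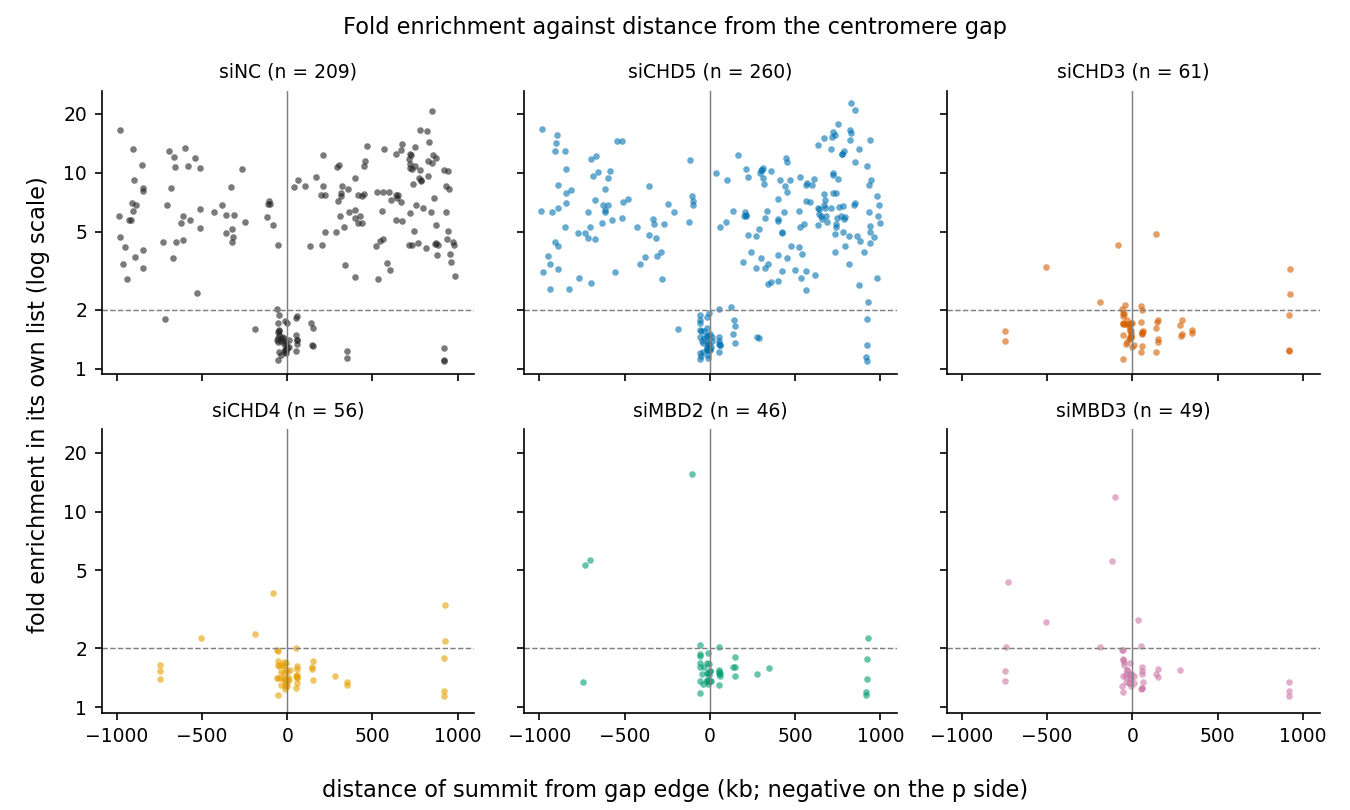
Fold enrichment of each pericentromeric summit in its own list (y axis, log scale) against its distance from the nearer gap edge in kb (x axis, p side negative), 1 panel per list. Summits below the dashed line at 2 crowd around the gap edge in all 6 panels, with median distances of 48.9 to 55 kb, and the cloud above it is dense only for siNC and siCHD5.

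A summit of each list but siMBD3, 5 members in all, lay just past the rounded gap start on chromosome 17, by 554 to 1238 bp, and no other summit fell inside a gap. At the outer bound, the siNC member nearest to 1 Mb lay on chromosome 20 at 25379807 to 25380073 (990 kb, 6.05-fold), and the nearest siNC peak beyond it on chromosome 13 at 20013265 to 20013524 (1013 kb, 10.9-fold). For siCHD5 the inner of the pair, on chromosome 10 between 43248674 and 43248923, was 5.52-fold, and the outer, on chromosome 13 between 20013247 and 20013541, was 8.41-fold. In siCHD3 the outermost member was on chromosome 7 at 61976315 to 61976616 (926 kb, 2.39-fold), and the next peak outward lay 8054 kb from its gap, on chromosome 16 (1.39-fold). siCHD4 had its outermost member at the same place on chromosome 7 (2.19-fold) and its next peak 6862 kb out, on chromosome 13 (5.92-fold). siMBD2 followed with 2.26-fold there and a next peak at 1327 kb on chromosome 20 (6.64-fold). In siMBD3 the outermost member lay 919.5 kb out on chromosome 7 (1.35-fold), and the next peak at 1490 kb on chromosome 8 (4.35-fold).

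The chromosomes divided in the same way. Summits below 2 occurred on 10 chromosomes, and on 8 of them (1, 2, 7, 8, 10, 11, 18 and 19) in all 6 lists. Chromosome 2 held most of them in every list: 13 in siNC, 14 in siCHD5, 16 in siCHD3, 15 in siCHD4, 11 in siMBD2 and 14 in siMBD3. Chromosome 10 came next in siCHD3 with 12 and held 4 to 7 in the other lists, and chromosome 11 held 5 to 7 in every list. Chromosome 6 had weak summits in siNC and siCHD5 alone, 1 each, and chromosome 17 in 5 lists but not in siMBD3. On 10 chromosomes (3, 5, 6, 9, 12, 13, 14, 15, 20 and 22) siNC or siCHD5 had members and the other 4 lists had none. Strong summits were most frequent on chromosome 2 (33 in siNC and 35 in siCHD5), chromosome 17 (29 and 35), chromosome 20 (16 and 23) and chromosome 3 (13 and 16).

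Fold and −log10 p together give the pull-down pileup, the number of reads covering the summit, and the control background expected there. All 681 members could be resolved in this way. Weak summits stood on very high background in every list. Their median pileup was 526 reads over a median background of 386 in siNC, 556 over 391 in siCHD5, 778.5 over 512 in siCHD3, 671.5 over 490 in siCHD4, 764 over 450 in siMBD2 and 566 over 369 in siMBD3. Weak summits outside the windows also stood on high background, with medians of 136 reads in siNC, 146 in siCHD5, 475 in siCHD3, 829 in siCHD4, 2132 in siMBD2 and 2703 in siMBD3. The high background of weak summits follows in part from the split at 2. Every listed peak had passed the caller's test against its control, and a fold below 2 passes only where reads are many. The lowest background of a weak siNC summit was 39.6 reads inside the windows and 15.3 outside. Strong members had median pileups of 36 reads over 3.5 in siNC and 33 over 3.67 in siCHD5. The lowest background of any peak lay between 1.83 and 2.80 reads in the 6 lists. The part of copy number and read placement in the weak summits was not tested.

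**Figure D3:**
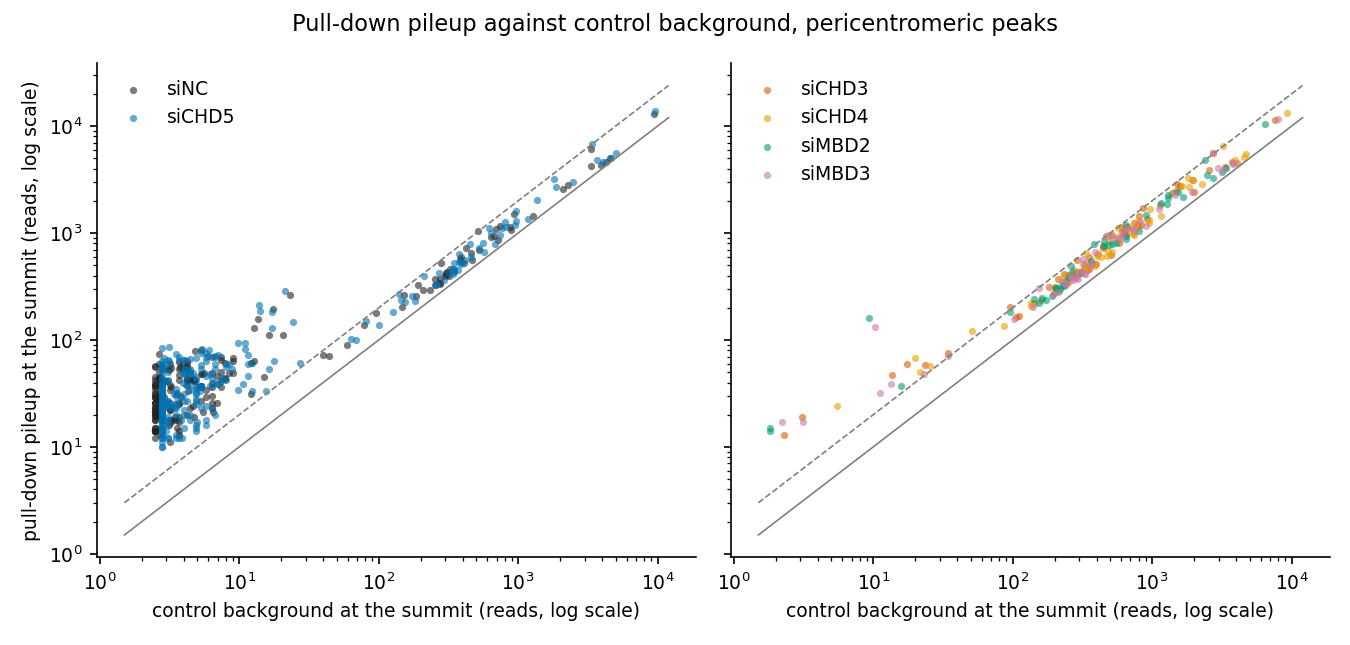
Pull-down pileup (y axis) against control background (x axis) at each pericentromeric summit, both in reads on log scales, with siNC and siCHD5 on the left and the 4 short lists on the right. The solid line marks equality and the dashed line a 2-fold excess. Weak summits run along a narrow band under the dashed line, from 39.6 reads of background upwards in siNC and from higher values in the other lists, while most siNC and siCHD5 summits above it have backgrounds of a few reads.

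Member peaks of all lists merged into 293 loci by overlaps of at least 1 bp. Of these, 19 held a peak of all 6 lists, 7 of 5 lists, 6 of 4, 7 of 3, 152 of 2 and 102 of a single list. The 19 loci lay on 8 chromosomes and carried 178 summits, and in 17 of them every summit was below 2. Of the 19 loci, 16 were within 100 kb of the gap, with a median distance of 55.2 kb. Among the loci of 2 lists, 145 belonged to siNC and siCHD5, and 142 of these had summits of 2 or more alone. siCHD5 alone had 63 loci and siNC alone 24. A member of a short list was present at 61 loci, 24 of which had no siNC or siCHD5 member, and 23 loci had members of all 4 short lists.

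The highest pileups of all members lay on the p side of chromosome 1, about 55 kb from the gap. At 121484961 to 121485384 fold was 1.37 in siNC, 1.46 in siCHD5, 1.49 in siCHD3, 1.41 in siCHD4, 1.61 in siMBD2 and 1.45 in siMBD3. The pileup was 12868, 13877, 11390, 13199, 10380 and 11689 reads in the same order, over backgrounds of 9361, 9513, 7651, 9337, 6463 and 8053. At its neighbour, 121484367 to 121484723, folds were lower, 1.11, 1.12, 1.12, 1.16, 1.19 and 1.19. Summits of the 6 lists agreed within 13 bp at the first locus and 35 bp at the second.

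Chromosome 2 carried the cluster with most summits, 82 weak summits over 40.8 kb between 4.84 and 45.6 kb from the gap on the p side. Of its loci, 6 held peaks of all 6 lists. The one with most summits, 18 over the lists, spanned 92312573 to 92313408, with a highest fold of 1.44 in siNC, 1.45 in siCHD5, 1.69 in siCHD3, 1.70 in siCHD4, 1.69 in siMBD2 and 1.68 in siMBD3. The widest siNC member, 783 bp, lay in it. At 92316211 to 92316739 the folds were 1.25, 1.33, 1.60, 1.40, 1.50 and 1.40, and at 92324080 to 92324633, 5.43 kb from the gap, 1.34, 1.34, 1.70, 1.55, 1.46 and 1.48. In 3 of the 6 loci the highest summits of the lists lay 338 to 636 bp apart, and in the other 3 within 26 bp.

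Chromosome 11 had 37 weak summits over 10.9 kb on the p side, 48.9 to 59.8 kb from the gap. At 51580169 to 51580652 fold was 2.02 in siNC, 1.78 in siCHD5, 2.02 in siCHD3, 1.96 in siCHD4, 2.08 in siMBD2 and 1.97 in siMBD3, with summits within 4 bp of each other. Its siNC summit is the only siNC member of fold 2 or more that any short list overlapped. At 51582631 to 51583049 folds were 1.53, 1.71, 1.92, 1.95, 1.88 and 1.76 in the same order. The third locus, at 51584658 to 51584989, had folds of 1.71, 1.88, 1.72, 1.65, 1.68 and 1.97.

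On the q side of chromosome 19, the locus at 27731953 to 27732325 had folds of 1.81 in siNC, 2.01 in siCHD5, 2.08 in siCHD3, 2.01 in siCHD4, 2.03 in siMBD2 and 2.06 in siMBD3. It was covered by 6057, 6783, 5655, 6481, 4866 and 5661 reads, and the highest summits lay within 2 bp. Its neighbour at 27736247 to 27736497 had folds of 1.39, 1.45, 1.52, 1.46, 1.52 and 1.53. Chromosome 18 had loci of all lists at 18518908 to 18519502, where fold ran from 1.26 in siMBD3 to 1.85 in siNC, and at 18519879 to 18520264, from 1.31 in siCHD5 to 1.56 in siCHD3. At the first, the highest summits of the lists were 418 bp apart.

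Chromosome 10 had 2 loci of all lists among 25 weak summits on the q side, 137 to 151 kb from the gap. At 42400229 to 42400681 fold was 1.62 in siNC, 1.65 in siCHD5, 1.78 in siCHD3, 1.73 in siCHD4, 1.81 in siMBD2 and 1.57 in siMBD3, and at 42398549 to 42398842 it was 1.30, 1.35, 1.42, 1.38, 1.44 and 1.43. A further 16 weak summits lay 279 to 350 kb from the gap, 6 of them from siCHD3 and 1 from siMBD3. Chromosome 8 had 1 locus of all lists, at 46849124 to 46849504 on the q side, with folds of 1.28 to 1.38. Chromosome 7 had the farthest one, 919 kb from its gap on the q side at 61968795 to 61969635, with folds of 1.27, 1.32, 1.24, 1.21, 1.40 and 1.35. The widest members of siCHD5, siCHD3, siCHD4, siMBD2 and siMBD3, 831 to 841 bp, all lay in it.

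Across the 19 loci the background rose and fell together in the lists. Divided by the lowest background of the same list, the median was 183 in siNC, 188 in siCHD5, 194 in siCHD3, 207 in siCHD4, 209 in siMBD2 and 177 in siMBD3, and the highest ratio was 3346 to 3748. Spearman's rho of background between siNC and each other list was 0.933 to 0.968 over the 19 loci. For fold it was 0.912 with siCHD4, 0.784 with siMBD2, 0.698 with siCHD3, 0.640 with siCHD5 and 0.639 with siMBD3. Loci of 1 chromosome lie close together and all loci of a list share its libraries, so these values are descriptions.

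**Figure D4:**
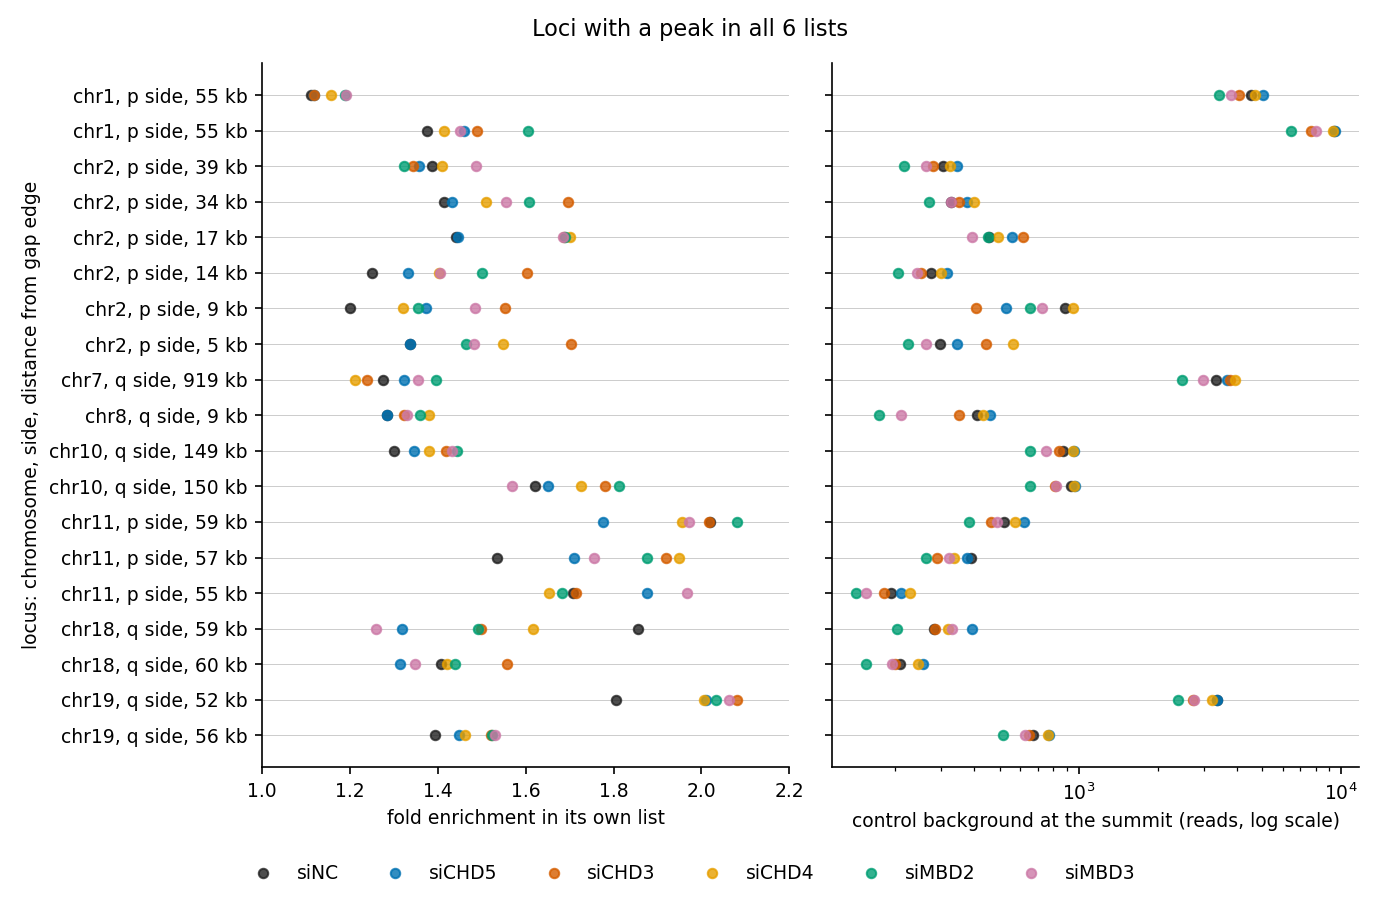
The 19 loci with a peak in all 6 lists, each named by chromosome, side and distance from the gap edge, with the fold of its highest summit in each list on the left and the control background there in reads on a log scale on the right. Folds lie between 1.11 and 2.08, and the background spans 142 to 9513 reads. The highest background is under 2 times the lowest at 16 loci and up to 2.65 times at the other 3, on chromosomes 2 and 8.

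siCHD5 overlapped more siNC peaks than any other list did, in this region and over the whole lists. The short lists held only 46 to 61 members, which limits how many siNC members they can overlap. It overlapped 181 of 209 siNC members (86.6%, 81.2 to 90.9), near the 85.4% of the whole siNC list. The share was 38 of 47 for summits below 2 (80.9%, 66.7 to 90.9) and 143 of 162 for the stronger ones (88.3%, 82.3 to 92.8). Overlapped siNC members had a median fold of 6.29 and the remaining 28 one of 3.65. In the other direction siNC overlapped 189 of 260 siCHD5 members (72.7%, 66.8 to 78.0), near the 74.5% of the whole siCHD5 list. By this measure siCHD5 did not stand apart here. The siNC list overlapped 73.9% of siMBD2, 73.5% of siMBD3, 67.9% of siCHD4 and 60.7% of siCHD3 members.

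Within the windows, the siNC peaks that the short lists overlapped were almost entirely weak summits. siCHD3 peaks overlapped 36 of 209 siNC members (17.2%, 12.4 to 23), against 0.179% of the whole siNC list. siCHD4 overlapped 34 (16.3%, against 0.169%), siMBD2 35 (16.7%, against 0.250%) and siMBD3 33 (15.8%, against 0.176%). Among siNC members below 2 the shares were 74.5% for siCHD3 (59.7 to 86.1), 70.2% for siCHD4 (55.1 to 82.7), 72.3% for siMBD2 (57.4 to 84.4) and 68.1% for siMBD3 (52.9 to 80.9). Of the 162 siNC members of fold 2 or more, each short list overlapped 1 (0.617%, 0.0156 to 3.39), the chromosome 11 summit named above. Among the 19 weak siNC summits outside the windows, siCHD3 overlapped 8, siCHD4 9, siMBD2 6 and siMBD3 5. Over all siNC peaks outside the windows the overlaps numbered 15, 14, 36 and 17 in the same order, and the 36 of siMBD2 had a median siNC fold of 6.90.

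**Figure D5:**
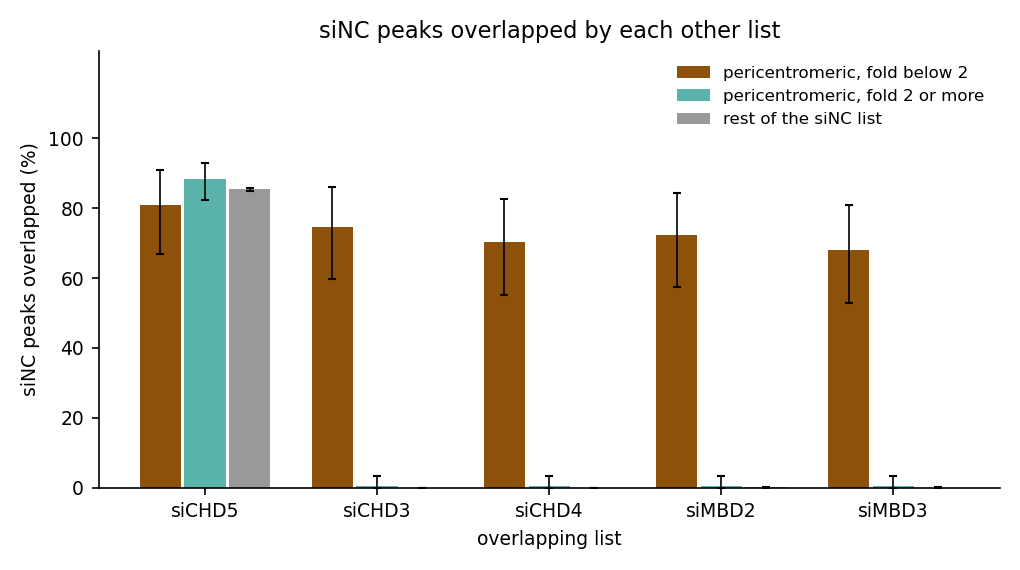
Share of siNC peaks overlapped by each other list (y axis, percent; x axis, overlapping list), for pericentromeric siNC peaks of fold below 2 (n = 47), of 2 or more (n = 162) and the rest of the siNC list, with exact 95% intervals as error bars. The 4 short lists overlap 68.1% to 74.5% of the weak pericentromeric peaks and 0.617% of the stronger ones, and siCHD5 overlaps over 80% of each.

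Counted from the short lists, siNC overlapped 37 of 61 siCHD3 members (60.7%, against 37.9% of the whole siCHD3 list) and 38 of 56 siCHD4 members (67.9%, against 46.4%). It overlapped 34 of 46 siMBD2 members (73.9%, against 20.7%) and 36 of 49 siMBD3 members (73.5%, against 22.0%). The short lists also overlapped each other here. siCHD4 covered 45 of 61 siCHD3 members (73.8%, against 64.3% of the whole siCHD3 list) and siCHD3 covered 47 of 56 siCHD4 members (83.9%, against 78.2%). These shares, and those of siMBD2 over 44 siCHD3 members (72.1%, against 65.0%) and 44 siCHD4 members (78.6%, against 70.0%), stood near those of the whole lists. siMBD2 covered 41 of 49 siMBD3 members (83.7%, against 73.4%), and siMBD3 covered 36 of 46 siMBD2 members (78.3%, against 51.1%). siCHD3 covered 39 siMBD2 members (84.8%, against 24.3%) and 42 siMBD3 members (85.7%, against 32.8%). siCHD4 covered 38 siMBD2 members (82.6%, against 22.3%) and 41 siMBD3 members (83.7%, against 30.5%). These shares of siCHD3 and siCHD4 were far above the whole lists, but weak peaks outside the windows were covered about as often. There siCHD3 covered 44 of 47 weak siMBD2 peaks (93.6%) and 40 of 44 weak siMBD3 peaks (90.9%). siCHD4 covered 40 (85.1%) and 38 (86.4%) of them. siMBD3 covered 42 siCHD3 members (68.9%, against 60.7%) and 42 siCHD4 members (75%, against 68.2%).

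Summits of overlapping weak peaks lay close together. From weak siNC summits to the nearest summit of an overlapping peak the median distance was 6.5 bp in siCHD5, 10 bp in siCHD3, 7 bp in siCHD4, 13 bp in siMBD2 and 7.5 bp in siMBD3. It was at most 20 bp for 30 of 38, 22 of 35, 27 of 33, 23 of 34 and 23 of 32 summits, in that order. For stronger siNC summits overlapped by siCHD5 the median was 10 bp, with 104 of 143 at most 20 bp apart.

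In siNC and siCHD5 weak peaks, counted once per summit, were wider than strong ones. Weak intervals also held several summits more often than strong ones. Median width was 356 bp for weak and 296.5 bp for strong siNC members, and 352 bp and 300 bp in siCHD5. An interval with several summits enters these medians once for each summit. The weak class had 47 summits in 39 intervals in siNC and 53 in 40 in siCHD5. Median widths over intervals were not computed. Weak members of the short lists had medians of 342.5 bp in siCHD3, 424.5 bp in siCHD4, 350.5 bp in siMBD2 and 392 bp in siMBD3. Of the 39 siNC intervals with a weak summit 9 had several summits (23.1%), against 1 of 162 intervals with a strong one (0.617%) and 1.28% of intervals in the rest of the list. In siCHD5 these shares were 27.5%, 2.46% and 1.54%. Weak intervals outside the windows had several summits about as often, 5 of 14 in siNC (35.7%) and 8 of 24 in siCHD5 (33.3%). The shares for weak intervals were 30.8% in siCHD3, 34.3% in siCHD4, 21.2% in siMBD2 and 34.5% in siMBD3. Outside the windows, 28.1% of siCHD3 and 27.0% of siCHD4 intervals had several summits.

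The strongest pericentromeric peaks of siNC and siCHD5 were largely the same places, far from the gap. The first of siNC lay on chromosome 5 between 50258743 and 50259120, with 74 reads over 2.64 (20.6-fold), and siCHD5 had a 21-fold peak there. The next, on chromosome 10 between 38265529 and 38265913, was 16.6-fold in siNC and 16.8-fold in siCHD5. On chromosome 20 the peak between 30147859 and 30148238 was 16.5-fold in siNC and 12.5-fold in siCHD5, and that between 30200613 and 30201007 was 14.4-fold in siNC and 22.6-fold in siCHD5, the highest of that list. On chromosome 17 the peak between 26080160 and 26080582 was 16.3-fold in siNC and 14.7-fold in siCHD5, and that between 26083749 and 26084131 was 9.68-fold in siNC and 16.5-fold in siCHD5. On chromosome 2 between 96079766 and 96080137 siCHD5 had a 17.8-fold peak and siNC one of 13.5-fold. All of these lay 750 to 984 kb from a gap, over backgrounds of 2.50 to 6.34 reads in the 2 lists, and no short list had a peak at any of them.

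Members found in siNC and not in siCHD5, or the reverse, were weaker than these. The strongest of siNC without a siCHD5 peak was 7.72-fold, on chromosome 2 between 95745794 and 95746102. It was followed by 6.29-fold on chromosome 17 (25621142 to 25621528), 6.0-fold and 5.68-fold on chromosome 10 (42679186 to 42679427 and 42924078 to 42924292) and 5.72-fold on chromosome 20 (25450732 to 25450972). The strongest of siCHD5 without a siNC peak were 9.46-fold and 8.15-fold, both on chromosome 20 (29901145 to 29901464 and 25555089 to 25555345). The next were 7.89-fold on chromosome 8 (47579894 to 47580142), 7.36-fold on chromosome 18 (14979026 to 14979256) and 7.25-fold on chromosome 14 (19676436 to 19676698). None of the 10 had a peak in any other list, and their pileups were 19 to 35 reads.

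Strong members of the short lists were few. On the p side of chromosome 21 siMBD2 and siMBD3 shared a peak 103 kb from the gap, at 11186500 to 11186817, of 15.53-fold in siMBD2 (159 reads over 9.30) and 11.9-fold in siMBD3 (133 reads over 10.2), with summits 1 bp apart. They shared another at 10558819 to 10559031, of 5.31-fold in siMBD2 (14 reads) and 4.37-fold in siMBD3 (17 reads). siMBD2 alone had a peak at 10588413 to 10588892 (5.66-fold, 15 reads), and siMBD3 alone at 11169904 to 11170161 (5.61-fold, 17 reads). The other 4 lists had 1 member on this chromosome, a 3.12-fold siCHD5 peak at 10735761 to 10735998.

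In siCHD3 the strongest members were on chromosome 7 at 61185907 to 61186109 (4.87-fold, 19 reads) and 57967982 to 57968195 (4.26-fold, 13 reads), neither with a partner in another list. In siCHD4 it was chromosome 16 at 35253733 to 35253936 (3.83-fold, 24 reads), also without a partner. A locus on chromosome 4 at 49151197 to 49151766 had peaks of 3.29-fold in siCHD3, 2.2-fold in siCHD4 and 2.72-fold in siMBD3, with the 3 summits at the same base. On chromosome 7, 926 kb from the gap, a peak at 61975616 to 61975943 was 3.23-fold in siCHD3, 3.32-fold in siCHD4 and 2.19-fold in siCHD5. Its neighbour at 61976315 to 61976616 was 2.39-fold in siCHD3, 2.19-fold in siCHD4 and 2.26-fold in siMBD2. On chromosome 1 at 121351933 to 121352297 siCHD4 had a 2.36-fold peak, with 2.18-fold in siCHD3, 2.04-fold in siMBD3, 1.60-fold in siCHD5 and 1.59-fold in siNC. siMBD3 alone had a 2.79-fold peak on chromosome 7 at 61083634 to 61083853.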

How the data were processed

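TET1 ChIP-seq of HEK293T cells comprised 36 libraries, 18 pull-down and 18 input, in 6 siRNA groups with 3 replicates of each kind. Per the submitters' processing notes, the tools were MACS2 2.1.2 (a peak caller), Bowtie2 2.3.4 (an aligner), SAMtools 1.9, bedtools 2.25.0, deepTools 3.5.0 and FastQC 0.11.7, and the build was hg19. How multiply placed reads, duplicates and repeats were treated is not given in the sources used here. Deposited files are 1 narrowPeak list per siRNA, named for replicates 1 to 3 together and taken as called on pooled libraries. The authors' fold is a ratio, pull-down over local control at each summit. Their peak caller tested that base against the control, deposited as −log10 of p and of q. The authors’ score follows the q-value and was not used. Depth per library was not analysed here. A peak with several summits is listed once per summit, and each summit counts as 1 peak unless intervals are named.

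Membership was set by the summit, overlap required 1 bp, and loci were connected groups of overlapping members. Coordinates are counted from 1. Pileup t and background b were found as the whole number t with (t + 1)/(b + 1) equal to fold and a Poisson tail equal to p, within 0.02 on −log10 p, for all peaks; b is on the scale to which the peak caller brought pull-down and control. Shares carry exact Clopper-Pearson 95% intervals, which take each summit as independent. Procedures were tested on simulated data. No test was run, because each group has 1 list. The regions and the rule that names them were chosen with earlier results of these data known: loci in all 6 lists, the 5 members of highest fold per list, the 5 strongest of siNC without siCHD5 and the reverse, loci with most summits, the widest member per list, the leading chromosomes and the members at the 1 Mb bound. Other loci named for the short lists, the fold split at 2 and the clusters of weak summits (neighbours at most 100 kb apart) were chosen after the values were seen. No genome or annotation of hg19 was used, so genes, repeats and sequences are not given. Chromosomes X and Y are outside the rule. Python 3.11.15, numpy 2.4.6, pandas 2.3.3, scipy 1.17.1 and matplotlib 3.10.9 were used.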

Additional observations from a re-analysis of the deposited data

How the results depend on the processing

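No paired analysis was possible because each siRNA has 1 list that pools its replicates, and for the same reason no replicate could be left out. Of 138 recomputed values 106 stayed within 1.5 times the count or within the interval of the share or median. With a flank of 0.5 Mb siNC had 97 peaks (median fold 4.29) and siCHD5 120 (3.47), and siCHD3, siCHD4, siMBD2 and siMBD3 overlapped 34.0%, 32.0%, 33.0% and 30.9% of the siNC peaks. With 2 Mb siNC had 473 and siCHD5 566 peaks, and these overlaps were 7.61%, 7.19%, 7.61% and 6.98%. A −log10 q of at least 5 gave median folds of 6.44 in siNC and 6.30 in siCHD5. A fold of at least 2 left 9 peaks in siCHD3 (median 2.39), 6 in siCHD4 (2.3), 6 in siMBD2 (3.79) and 8 in siMBD3 (2.75), and medians of 6.89 in siNC and 6.31 in siCHD5. It left 0 loci in all 6 lists. siCHD3 and siMBD2 then each overlapped 0.617% of the siNC peaks, and siCHD4 and siMBD3 0%. Such a cut removes the weak summits, which made up nearly all of these overlaps, and it leaves few peaks in the short lists. siCHD5 still overlapped 87.7% of the siNC peaks. Requiring 50% of both peaks to overlap lowered the siCHD5 share to 79.9%. Counting distinct intervals, pairing summits within 200 bp, splitting at a fold of 3 or splitting at a background of 50 reads moved no value beyond these limits; the last 2, and every alternative for the number of weak peaks, were chosen after seeing the data.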

Other observations

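Between 1 and 2 Mb from the gap edges no list had a peak of fold below 2, and within 1 Mb each list had 40 to 53. In that outer ring siNC had 264 peaks (median fold 6.77) and siCHD5 had 306 (6.14), more than the 209 and 260 within 1 Mb. siMBD2 had 3 peaks there, siMBD3 had 1, and siCHD3 and siCHD4 had 0. Over all peaks outside the 1 Mb windows, only 0.0673% in siNC and 0.0831% in siCHD5 were below 2. At such shares a ring of this size would hold few weak peaks or none. The short lists had too few peaks in the ring to tell. The comparison of rings was made after the data were seen, and the rings hold different amounts of assembled sequence.

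The 283 weak pericentromeric summits of all lists fell into 15 clusters of neighbours at most 100 kb apart, and 9 clusters held all 6 lists and 246 of the summits. The remaining clusters included 8 summits on chromosome 8 between 43094846 and 43095147, from siCHD3, siCHD4, siMBD2 and siMBD3 alone, with folds of 1.35 to 1.64 over backgrounds of 102 to 485 reads. They also included 2 summits on chromosome 6 between 58776425 and 58779294, from siNC and siCHD5 alone, with folds of 1.21 and 1.16 over backgrounds of 713 and 679 reads. Chromosome 17 had 15 summits between 22245645 and 22261239, 6 of them from siCHD5 and none from siMBD3.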
